A study of Homo sapiens with 40 samples.

Results

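The 10 genes described here encode the D-type cyclins CCND1, CCND2 and CCND3, the E-type cyclins CCNE1 and CCNE2, and the cyclin-dependent kinase (CDK) inhibitors CDKN1A, CDKN1B, CDKN1C, CDKN2C and CDKN2D. They were found by their symbols among the 55765 symbols listed in each count file. All 10 symbols were present. The 40 RNA-Seq libraries came from HEK293, an established human embryonic kidney cell line, and form 12 groups in 3 experiments. In the RNA immunoprecipitation experiment (RIP-Seq), cells that received no siRNA gave total RNA and RNA recovered with antibodies to endogenous eIF4A1, eIF4A2 or DDX6, with 3 libraries in each of 4 groups. In the gradient experiment, cells were transfected with control siRNA or CNOT1 siRNA, and RNA was sequenced from the unfractionated input, from pooled subpolysomal fractions 1 to 5 and from pooled polysomal fractions 6 to 11 of sucrose density gradients, with 4 libraries in each of 6 groups. In the TNRC6 experiment, total RNA came from cells transfected with control siRNA or with siRNAs against TNRC6A and TNRC6B together, with 2 libraries in each of 2 groups. All transfected cells were harvested at the same interval after transfection. A library from a control IgG precipitation was not analysed here, so an IP is compared only with total RNA or with another IP. The labels do not say whether replicates came from separate cultures, and p-values therefore measure the spread between these libraries, which may be technical.

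D-type cyclins activate CDK4 and CDK6, and E-type cyclins activate CDK2. Together these kinases phosphorylate the retinoblastoma protein RB, which releases E2F transcription factors and lets a cell pass from G1 into S phase. CDK inhibitors of the INK4 family, among them p18 (CDKN2C) and p19 (CDKN2D), bind CDK4 and CDK6, whereas the CIP/KIP family, p21 (CDKN1A), p27 (CDKN1B) and p57 (CDKN1C), binds cyclin-CDK complexes more broadly. The mRNAs of both classes are classic microRNA targets. microRNAs act through Argonaute and its partners of the TNRC6 (GW182) family, which recruit the CCR4-NOT deadenylase complex built on the scaffold CNOT1. eIF4A1 is the helicase of the eIF4F initiation complex, eIF4A2 its close paralog, and DDX6 a helicase that binds CNOT1. HEK293 cells carry adenovirus 5 DNA, and the viral E1A protein binds RB, which limits these cells as a model of the normal G1 checkpoint.

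The sequences below show the microRNA seeds and the matches that the 3′UTRs of these genes carry, since the effect of the siRNAs on microRNA partners is one of the questions of the design. A seed is bases 2 to 8 of the microRNA and is printed in capitals, 5′ to 3′, from RefSeq. Families that share a seed are represented by 1 member, so miR-15a goes with miR-16, miR-20a and miR-93 with miR-17, and miR-19b with miR-19a.
hsa-let-7a-5p: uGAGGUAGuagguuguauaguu
hsa-miR-16-5p: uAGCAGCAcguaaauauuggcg
hsa-miR-17-5p: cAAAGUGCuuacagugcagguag
hsa-miR-19a-3p: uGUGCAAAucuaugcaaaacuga
hsa-miR-34a-5p: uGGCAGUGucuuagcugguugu
hsa-miR-221-3p: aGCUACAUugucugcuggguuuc

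In the annotated transcript of each gene (GENCODE on GRCh37), the 7-letter complement of the seed was searched on the mRNA strand of the 3′UTR. CCNE1 held 2 matches to miR-15/16 (TGCTGCT) and CDKN1B held 2 to miR-221 (ATGTAGC), and these are shown with the genes that share a seed match, the match in capitals.
CCNE1, miR-15/16, chr19:30314917-30314938, plus strand: gtgcgtgctcccgaTGCTGCTa
CCNE1, miR-15/16, chr19:30315155-30315176, plus strand: aactgttttgtaagTGCTGCTa
CCND1, miR-15/16, chr11:69468069-69468090, plus strand: tctttcacattgttTGCTGCTa
CCND2, miR-15/16, chr12:4410925-4410946, plus strand: tgtttcacagagtgTGCTGCTa
CCND3, miR-15/16, chr6:41903057-41903078, minus strand: gtgattgacagcttTGCTGCTg
CDKN1A, miR-15/16, chr6:36654367-36654388, plus strand: ctgcaattcccctcTGCTGCTg
CDKN1B, miR-221, chr12:12874148-12874169, plus strand: tctaaaagcgttggATGTAGCa
CDKN1B, miR-221, chr12:12874221-12874242, plus strand: agtttttaccttttATGTAGCa
CDKN1C, miR-221, chr11:2905058-2905079, minus strand: ggctgggaccgttcATGTAGCa
CCND2, miR-221, chr12:4409922-4409943, plus strand: tatctaatggggaaATGTAGCt

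A further seed match that several of the genes shared was that of miR-17 (GCACTTT), which CDKN1A held at 2 places and CCND1 and CCND2 at 1 each.
CDKN1A, miR-17, chr6:36654031-36654052, plus strand: gaagtaaacagatgGCACTTTg
CDKN1A, miR-17, chr6:36654711-36654732, plus strand: ctccccagttcattGCACTTTg
CCND1, miR-17, chr11:69467050-69467071, plus strand: cattccatttccaaGCACTTTc
CCND2, miR-17, chr12:4410129-4410150, plus strand: attccattcgaaaaGCACTTTg
CCND1 and CCND2 also held 2 matches each to miR-19 (TTTGCAC), and CDKN1A held the 1 match to let-7 (CTACCTC) among the 10 genes. A match to miR-34 (CACTGCC) was present in CDKN1B, CDKN1C and CCNE2, and a match to miR-25/92 (GTGCAAT) in CDKN1C and CCNE2.

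Read against all coding genes, 5 of the 10 genes held a miR-15/16 match, against 21.9% of 17416 annotated 3′UTRs. For miR-17 the count was 3 against 21.6%, for miR-221 3 against 8.3%, for miR-34 3 against 15.9%, for miR-19 2 against 13.9%, for miR-25/92 2 against 11.4% and for let-7 1 against 9.96%. These shares rise with length, and among 3′UTRs of at least 1000 nt, a class that holds 5 of the 10 genes, 34.3% had a miR-15/16 match and 36.2% a miR-17 match. The Pumilio motif TGTANATA was present in 4 genes (CDKN1A, CDKN1B, CCND2 and CCNE2) against 26.5% of 3′UTRs. The AU-rich nonamer TTATTTATT was present in 0 of the 10 genes and in 8.61% of all 3′UTRs. A match is a description of the letters and not of a used site. The 10 genes were chosen as a class with microRNA sites and structured 5′UTRs. The shares above and the 5′UTR values below are therefore a description and no test.

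The untranslated regions of these genes were of unlike length and composition. The 3′UTR of CCND2 was 5344 nt long and that of CCND1 3192 nt, against a median of 1083 nt over coding genes, while CDKN2C, at 364 nt, CCNE1, at 535 nt, and CDKN2D, at 598 nt, were short. In the 5′UTR the GC content was 82.3% for CCNE1, 81% for CDKN2D and 80.5% for CCND3, at percentiles 95.5, 93.7 and 92.9 of coding genes, and 45.2% for CDKN2C, at percentile 7.24. Purine tetramers (8 runs of 4 letters made of A and G only, among them GAGA, counted without overlap) were also counted in the 5′UTR. They numbered 4.66 per 100 nt in CCND2, 4.03 in CDKN2C, 3.92 in CCNE2 and 3.8 in CCND1, against a median of 1.82. In CCNE1, CCND3 and CDKN2D they numbered 0.538, 0.629 and 0.92 per 100 nt. The last bases of the 5′UTR before the start codon are shown for CDKN2C, from the tetramer-rich side, and CDKN2D, from the poor side, with tetramers in capitals. This short window held 1 tetramer in CDKN2C and 0 in CDKN2D.
CDKN2C, chr1:51436011-51436040, plus strand: atcttttcctgatcgtcaggaccctaAAGA
CDKN2D, chr19:10679330-10679359, minus strand: cggggggctttgcaggccgccagtgtcgac

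Some of these loci overlap genes on the opposite strand, and the strand setting used in counting is not given in the sources used here, so reads of such partners cannot be told apart. The exons of CCNE2 overlapped those of INTS8 by 1629 nt on the opposite strand, and CCND1 overlapped LTO1 by 497 nt. A further coding gene overlapped CCND2 by 999 nt on the same strand. CDKN1A and CDKN2C overlapped antisense lncRNAs by 146 and 617 nt.

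Totals ran from 15353317 to 46018900 counts per library. The neurofilament genes NEFL and NEFM, which HEK293 cells are known to express, were at 66.1 to 1386 and 197 to 6060 CPM (counts scaled to library size), and VIM at 105 to 676 CPM. The other HEK293 marker genes looked at were lower. PAX2 was at 0.098 to 1.57 CPM, LHX1 at 2.07 to 14.4 CPM and SOX11 at 0.79 to 25.9 CPM. Defining genes of other lineages (PTPRC, CD3E, ALB, HBB, MYH6 and KRT5) did not exceed 0.4 CPM in any library. CNOT1, the siRNA target, was at 630 to 713 CPM in control input and 36.9 to 41.5 CPM in CNOT1 siRNA input. In the polysomal fractions, however, the library labelled control siRNA replicate 3 held 28.4 CPM of CNOT1, against 471 to 502 CPM in the other 3, and the library labelled CNOT1 siRNA replicate 3 held 633 CPM, against 24.1 to 31.7 CPM. Both libraries oppose their labels and were left out of the gradient fit, which used 22 of 24 libraries, and calls that end when they are kept as labelled are given beside each result. TNRC6A was at 178 and 189 CPM with control siRNA and 40.5 and 64.7 CPM with TNRC6A/B siRNA, and TNRC6B at 67.6 and 73.1 against 17.7 and 26.3 CPM. The labels of these 4 libraries and their target levels pointed the same way. Of the precipitated proteins, EIF4A2 mRNA was at 375 to 421 CPM in total RNA and 851 to 1133 CPM in its own IP. DDX6 mRNA was at 166 to 177 CPM in total RNA and 404 to 615 CPM in its own IP. The symbol EIF4A1 went the other way, at 7.84 to 9.26 CPM in total RNA and 1.31 to 2.19 CPM in its own IP. Over all RIP libraries EIF4A1 held only 1.31 to 10.9 CPM.

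Levels of the 10 genes differed widely. On a per-length scale (CPM per kb of annotated exon), CCND1 ranked first in 8 of 12 groups and CDKN2C in the other 4. This length joins all annotated exons of a gene, 4761 nt for CCND1 and 3018 nt for CDKN2C. The transcripts described above were 4238 and 995 nt long. For CDKN1B and CCND3 the joined exons were 9255 and 5761 nt, against transcripts of 2411 and 2026 nt. The order, that of the lower genes included, therefore depends on the length chosen. An order by transcript length was not computed. In control siRNA input, CCND1 was at 32.3 ± 1.83 CPM per kb (SD, n = 4), CDKN2C at 26.8 ± 0.851, CCND2 at 13.8 ± 1.65, CCNE2 at 9.03 ± 0.138, CDKN1A at 7.71 ± 1.28, CCNE1 at 6.54 ± 0.811, CDKN1B at 5.02 ± 0.0849, CCND3 at 4.66 ± 0.338 and CDKN2D at 2.89 ± 0.415. CDKN1C was last in 12 of 12 groups, at 0.352 ± 0.0371 CPM per kb in that input, and was read from 1 to 92 counts per library. CCND1 and CDKN2C held the top ranks in all 12 groups, but their library ranges overlapped in 5 of them. Of the 108 pairs of neighbours in the 12 orders, 52 had overlapping library ranges, among them CCNE2, CDKN1A and CCNE1 in control siRNA input. The 3 experiments were normalised separately, so levels are compared within an experiment only.

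**Figure D1:**
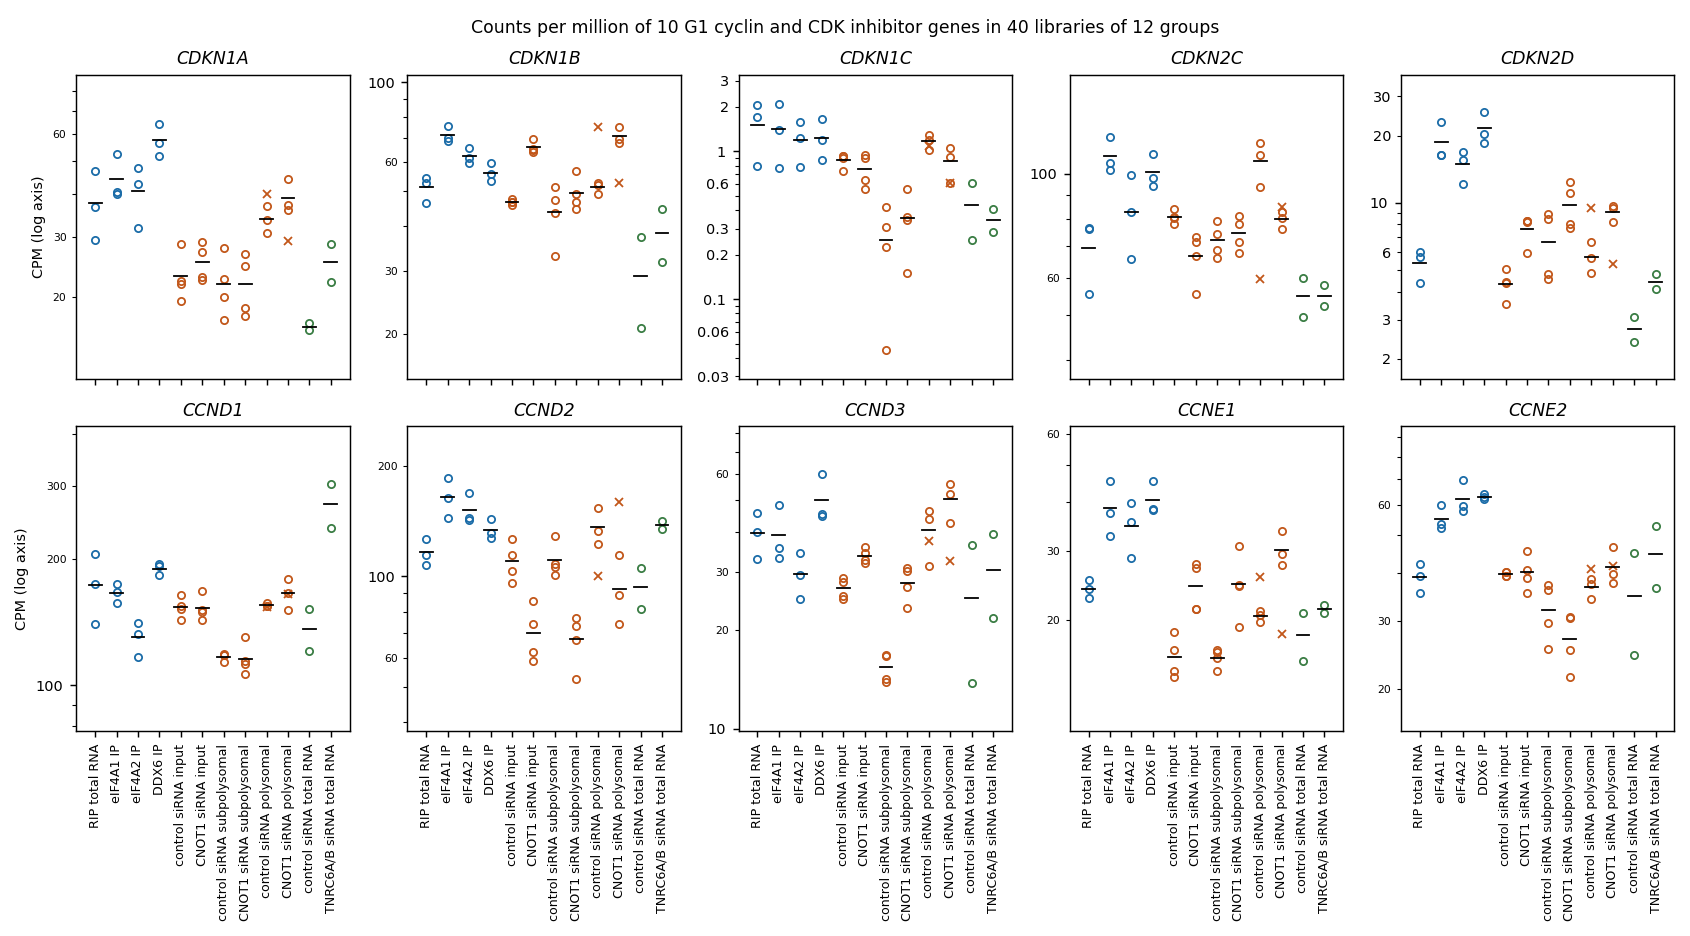
CPM (log axis) of each gene in every library, by group along the horizontal axis, with 1 symbol per library and a black line at the mean of the libraries in the fit. Colours separate the 3 experiments and crosses mark the 2 polysomal libraries left out of the fit. CDKN2D was higher in every IP library than in every total RNA library, and CDKN1C did not exceed 2.1 CPM in any library.

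The RIP-Seq comparison asks which mRNAs were recovered with eIF4A1, eIF4A2 or DDX6 beyond their share of total RNA. With the edgeR quasi-likelihood test and a false discovery rate (FDR) below 0.05 over 17474 genes, the eIF4A1 IP held 6 of the 10 genes at a higher level than total RNA and 0 at a lower level, beside 26.1% and 26.5% of the whole table. The eIF4A2 IP held 4 higher and 1 lower, beside 24.5% and 25.8%. The DDX6 IP held 5 higher and 0 lower, beside 22.7% and 23.3%. The median log2 fold change of the 10 genes was 0.49, 0.27 and 0.44 in the 3 IPs, beside 0.04, 0.01 and 0.01 over all genes tested. The 3 comparisons share the same total RNA libraries and are not independent of each other.

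CDKN2D, the p19 inhibitor of CDK4 and CDK6, had the largest change of the 10 genes in each IP. Its level was 6, 5.74 and 4.38 CPM in the total RNA libraries. It was 16.4, 23.1 and 16.3 CPM in the eIF4A1 IP, 12.2, 15.6 and 16.9 CPM in the eIF4A2 IP and 18.6, 25.6 and 20.4 CPM in the DDX6 IP. Every IP library thus lay above every total RNA library. The log2 fold changes were 1.79 ± 0.20 (SE; FDR 1.37e-05), 1.47 ± 0.20 (FDR 5.53e-05) and 2.00 ± 0.20 (FDR 1.69e-05), and the call held without any single library.

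Both E-type cyclins, the activators of CDK2, were higher in all 3 IPs. CCNE1 was at 23.9, 25.3 and 22.8 CPM in total RNA and at 32.9, 45.5 and 37.5 CPM in the eIF4A1 IP, 28.8, 39.9 and 35.6 CPM in the eIF4A2 IP and 38.4, 45.5 and 38.2 CPM in the DDX6 IP. No IP library of CCNE1 overlapped the total RNA libraries, and the log2 fold changes were 0.69 ± 0.16 (FDR 0.0024), 0.54 ± 0.16 (FDR 0.0112) and 0.76 ± 0.16 (FDR 0.00155). Without eIF4A2 IP replicate 2 the call of CCNE1 in that IP was lost (log2 0.43, FDR 0.0549). CCNE2 was at 35.4, 42.2 and 39.1 CPM in total RNA, and at 52.2, 53.5 and 59.9 CPM, 57.8, 69.5 and 59.4 CPM, and 62.9, 62 and 64 CPM in the eIF4A1, eIF4A2 and DDX6 IPs. Its groups did not overlap either, with log2 fold changes of 0.50 ± 0.12, 0.68 ± 0.12 and 0.70 ± 0.12 (FDR 0.00412, 0.000548 and 0.000633).

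The D-type cyclins did not share 1 pattern. CCND2 was at 115, 127 and 108 CPM in total RNA and rose in the eIF4A1 IP (164, 145 and 185 CPM, log2 0.50 ± 0.14, FDR 0.00708) and the eIF4A2 IP (143, 144 and 169 CPM, log2 0.39 ± 0.14, FDR 0.0287). In the DDX6 IP it was at 131, 127 and 143 CPM, a difference of 0.20 ± 0.13 that did not pass the test. CCND2 stayed above the total RNA range in both eIF4A IPs, but its eIF4A2 call was lost without total RNA replicate 1 (FDR 0.0832) or 3 (FDR 0.0923) or eIF4A2 IP replicate 3 (FDR 0.105). CCND1 was at 175, 206 and 140 CPM in total RNA and at 133, 141 and 117 CPM in the eIF4A2 IP, a fall of CCND1 with log2 -0.41 ± 0.15 (FDR 0.0298). These 2 groups overlapped, and the CCND1 call was lost without total RNA replicate 1 (FDR 0.0735) or 2 (FDR 0.159) or eIF4A2 IP replicate 1 (FDR 0.0628) or 3 (FDR 0.102), and with only the compared libraries in the fit (FDR 0.088). With no filter on low counts the eIF4A2 calls of both CCND1 (FDR 0.0966) and CCND2 (FDR 0.115) were lost. CCND1 showed differences of -0.06 ± 0.15 in the eIF4A1 IP and 0.13 ± 0.15 in the DDX6 IP, neither past the test. CCND3 was at 39.9, 45.6 and 32.9 CPM in total RNA and passed no test against it in the unpaired fit (the paired fit is given below). Its differences were -0.02 ± 0.19, -0.41 ± 0.19 and 0.34 ± 0.19 in the eIF4A1, eIF4A2 and DDX6 IPs. Without total RNA replicate 3, CCND3 was lower in the eIF4A2 IP (-0.53, FDR 0.0478).

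Among the other inhibitors, CDKN2C (p18) was at 76.2, 76.7 and 55.4 CPM in total RNA and rose in the eIF4A1 IP (105, 120 and 102 CPM, log2 0.65 ± 0.17, FDR 0.00625) and the DDX6 IP (97.7, 110 and 94 CPM, log2 0.54 ± 0.17, FDR 0.0211). In the eIF4A2 IP CDKN2C was at 82.9, 99.5 and 65.8 CPM, which overlapped total RNA. CDKN1B (p27) was at 54.3, 52.6 and 46.3 CPM in total RNA and 75.7, 70 and 68.7 CPM in the eIF4A1 IP, a rise of 0.48 ± 0.12 (FDR 0.00378). CDKN1A (p21) was at 36.8, 46.5 and 29.4 CPM in total RNA and 51.7, 64 and 56.3 CPM in the DDX6 IP, a rise of 0.61 ± 0.19 (FDR 0.0199). These groups of CDKN1A and CDKN1B did not overlap. The DDX6 call of CDKN1A was lost without total RNA replicate 1 (FDR 0.0597) or 3 (FDR 0.0874) or DDX6 IP replicate 2 (FDR 0.0716), and that of CDKN2C without total RNA replicate 3 (FDR 0.091) or DDX6 IP replicate 2 (FDR 0.0731). CDKN1B passed in the eIF4A2 IP (0.29 ± 0.12, FDR 0.0575) only by DESeq2 (0.28, FDR 0.0262), with only the compared libraries (0.34, FDR 0.0469) and in the paired fit below. CDKN1C passed no test, with differences of -0.11 ± 0.40, -0.36 ± 0.41 and -0.31 ± 0.40 at 22 to 92 counts per library.

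Same-numbered RIP libraries deviated together, so the fit with the replicate number as a block (paired fit) is given where it changes a call. In the eIF4A2 IP it added a lower CCND3 (log2 -0.42, FDR 0.0041) and a higher CDKN1B (0.29, FDR 0.0124). In the DDX6 IP it added a higher CCND3 (0.33, FDR 0.016). Over all genes the paired fit called 5319 higher and 5582 lower in the eIF4A2 IP. In the DDX6 IP these counts were 5174 and 5313.

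**Figure D2:**
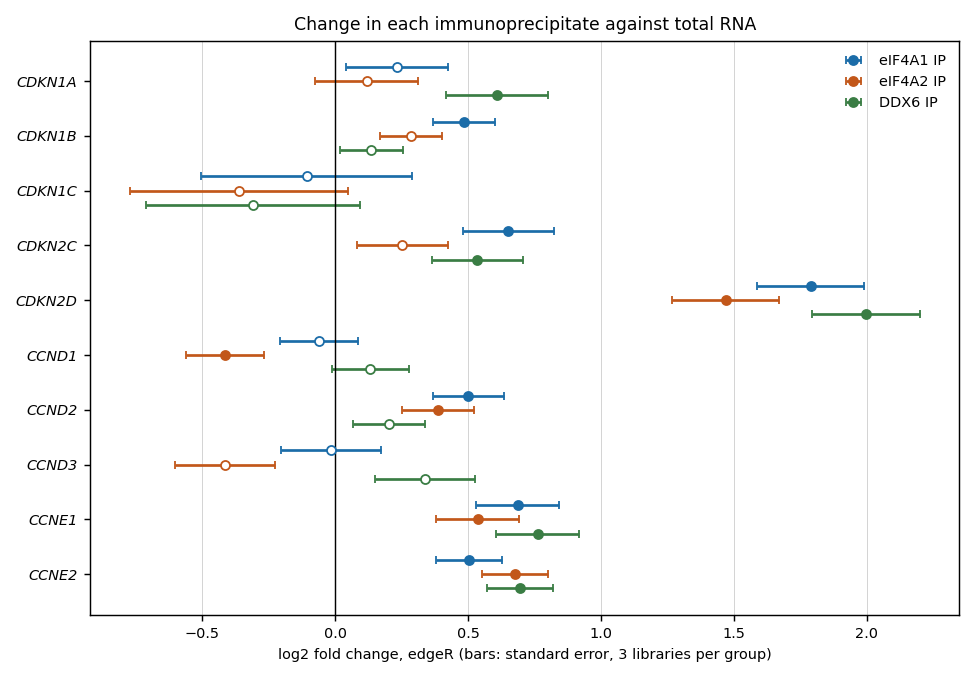
log2 fold change of each gene in the eIF4A1, eIF4A2 and DDX6 IPs against total RNA, with bars for 1 standard error and filled symbols where FDR was below 0.05 (3 libraries per group). CDKN2D stands to the right of the other 9 genes in all 3 IPs, at 1.47 to 2.00, and CCND1 is filled only in the eIF4A2 IP, at -0.41.

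Direct comparisons between the IPs ask whether a gene was recovered unequally with the 3 proteins. Between the eIF4A2 and eIF4A1 IPs, 0 of the 10 genes passed the edgeR test, against 0.973% of all genes higher and 0.0858% lower. At an unadjusted p under 0.05 edgeR gave 0 higher and 2 lower members, beside 1647 and 1469 of all 17474 genes. DESeq2 called 0 members, beside 541 genes higher and 159 lower. The paired fit called 2, CDKN2C (log2 -0.42, FDR 0.0215) and CCND3 (-0.39, FDR 0.0275), both lower with eIF4A2, where the unpaired differences were -0.40 for each. Over all genes it called 1245 higher and 1521 lower. Between the DDX6 and eIF4A1 IPs, 0 passed by edgeR or DESeq2, against 0.0801% higher and 0.0114% lower by edgeR. By DESeq2, 362 of all genes were higher and 177 lower. At an unadjusted p under 0.05 edgeR gave 0 higher and 2 lower members, beside 1341 and 1097 genes. The paired fit called CCND3 higher with DDX6 (0.36, FDR 0.0489) and CDKN1B lower (-0.35, FDR 0.0296). Over all genes it called 1062 higher and 668 lower.

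With eIF4A2 set against DDX6, 2 of the 10 genes were lower with eIF4A2 and 0 higher, beside 11.3% and 9.82% of all genes. CCND3 was at 24.9, 34.5 and 29.5 CPM with eIF4A2 and 44.5, 59.9 and 45.3 CPM with DDX6 (log2 -0.75 ± 0.19, FDR 0.0156). CCND1 was at 133, 141 and 117 CPM with eIF4A2 and 195, 183 and 193 CPM with DDX6 (log2 -0.55 ± 0.15, FDR 0.0201). The groups did not overlap for either D-type cyclin. The call of CCND1 was lost without eIF4A2 IP replicate 1 (FDR 0.0606) or 3 (FDR 0.0695) or without DDX6 IP replicate 1, 2 or 3 (FDR 0.0558, 0.0513 and 0.0524). That of CCND3 was lost without eIF4A2 IP replicate 1 (FDR 0.073) or DDX6 IP replicate 2 (FDR 0.0752). The paired fit called 5 genes lower with eIF4A2, beside 3842 lower and 3232 higher of all 17474 genes. The other 3 of the 5 were CDKN1A (-0.49, FDR 0.0156), CDKN2D (-0.52, FDR 0.0135) and CDKN2C (-0.30, FDR 0.0394).

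Other genes of the same pathway gave a context for these changes. Of 25 further G1/S genes (CDKs, RB and E2F family members and their regulators), 9 rose and 3 fell with eIF4A1, 9 and 3 with eIF4A2 and 10 and 3 with DDX6, with medians of 0.27, 0.01 and 0.14. E2F4, a largely repressive E2F, and E2F1, an activating E2F, had the largest increases in the eIF4A1 IP (log2 1.72 ± 0.21 and 1.67 ± 0.14) and in the eIF4A2 IP (1.59 ± 0.20 and 1.68 ± 0.14), and E2F4 and TFDP1, an E2F partner, in the DDX6 IP (1.68 ± 0.20 and 1.37 ± 0.21). RB1, which encodes RB, was lower in all 3, at -1.13 ± 0.19, -1.33 ± 0.19 and -0.82 ± 0.19. Of 7 genes of later cell cycle phases (A- and B-type cyclins, CDK1, CDC20 and PLK1), 0 were higher and 6 lower in each IP, with medians of -1.22, -1.28 and -0.95. CCNA2, the S and G2 phase cyclin, was lower by log2 -2.09 ± 0.12, -1.79 ± 0.12 and -1.496 ± 0.12, and CDC20, an activator of the anaphase-promoting complex, by -1.67, -1.78 and -1.34. With eIF4A2 set against DDX6, 5 of the 25 were lower, led by CDKN2A (-1.31) and CKS1B (-0.93), and of the 7, CCNB2 was lower (-0.48). In the other direct comparisons of IPs 0 of either list passed.

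The position of an mRNA in the gradient reflects how many ribosomes it carries. With control siRNA, 6 of the 10 genes were higher in polysomal than in subpolysomal RNA and 0 lower, against 33.7% and 38.4% of 17115 genes tested. With CNOT1 siRNA, 7 were higher and 0 lower, against 36% and 35.9%. The median log2 difference between the fractions was 0.38 and 0.52 for the 10 genes, beside -0.10 and -0.01 over all genes. Values below are polysomal over subpolysomal differences from 3 polysomal and 4 subpolysomal libraries per siRNA.

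CCND3, a D-type cyclin, had the largest polysomal excess among the genes read at more than a few counts. With control siRNA it was at 13.8, 14.2, 16.8 and 16.7 CPM in subpolysomal RNA and 46.2, 43.7 and 31.4 CPM in polysomal RNA (log2 1.40 ± 0.13, FDR 1.77e-09). With CNOT1 siRNA it was at 23.4, 27.1, 30.3 and 31 CPM and 52.2, 56 and 42.4 CPM (log2 0.85 ± 0.13, FDR 3.07e-06). The fractions of CCND3 did not overlap with either siRNA. CDKN1C (p57) was higher in polysomal RNA by 2.25 ± 0.38 (FDR 1.31e-05) and 1.28 ± 0.36 (FDR 0.00273), but these rest on 1 to 8 and 3 to 11 counts in the subpolysomal libraries.

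CCND1 showed a small and even excess. Its control siRNA libraries were at 114, 118, 119 and 118 CPM in subpolysomal and 158, 155 and 154 CPM in polysomal RNA (log2 0.41 ± 0.08, FDR 0.000101), and with CNOT1 siRNA the difference was 0.52 ± 0.08 (FDR 5.92e-06). CDKN1A was at 17.1, 20.1, 22.6 and 27.9 CPM against 30.9, 33.5 and 37 CPM with control siRNA (log2 0.63 ± 0.16, FDR 0.00165) and differed by 0.84 ± 0.16 with CNOT1 siRNA (FDR 8.70e-05). In both genes the fractions did not overlap with either siRNA. CDKN2C rose in polysomal RNA with control siRNA (68.8, 66.1, 74.3 and 79.3 CPM against 117, 110 and 93.5 CPM, log2 0.56 ± 0.10, FDR 2.16e-05) and was at 0.10 ± 0.10 with CNOT1 siRNA. CCNE1 rose with control siRNA (14.7, 16.5, 16 and 16.7 CPM against 21, 20.5 and 19.7 CPM, log2 0.35 ± 0.14, FDR 0.0274), a call lost without control subpolysomal replicate 1 (FDR 0.0685) or with only the compared libraries in the fit (FDR 0.0517), and was at 0.29 ± 0.14 with CNOT1 siRNA. CCNE1 passed with CNOT1 siRNA without subpolysomal replicate 2 (0.41, FDR 0.00947) or polysomal replicate 4 (0.37, FDR 0.0403) of that siRNA.

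The remaining genes passed the test with CNOT1 siRNA or not at all, and a call with 1 siRNA is not a difference between siRNAs, which is tested separately. CCNE2 was higher in polysomal RNA by 0.61 ± 0.13 (FDR 0.000256), CDKN1B by 0.53 ± 0.11 (FDR 0.000133) and CCND2 by 0.45 ± 0.15 (FDR 0.0109) with CNOT1 siRNA, against 0.19 ± 0.13, 0.23 ± 0.11 and 0.30 ± 0.15 with control siRNA. The CCND2 fractions overlapped, and its call was lost without the polysomal library of CNOT1 siRNA replicate 4 (FDR 0.116). With control siRNA, CDKN1B passed when all 24 libraries were kept as labelled (0.38, FDR 0.0172), by DESeq2 (0.26, FDR 0.0403) and without subpolysomal replicate 2 (FDR 0.012) or 4 (FDR 0.0444). CCND2 passed there without subpolysomal replicate 4 (FDR 0.0407) or polysomal replicate 1 (FDR 0.0336), and with no filter on low counts CCND2 (0.45), CDKN1B (0.37) and CCNE2 (0.33) all passed. CDKN2D did not differ past the test between fractions, at -0.20 ± 0.22 and -0.09 ± 0.21, with values of 4.55, 4.78, 8.44 and 8.88 CPM against 6.65, 5.69 and 4.87 CPM for control siRNA.

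**Figure D3:**
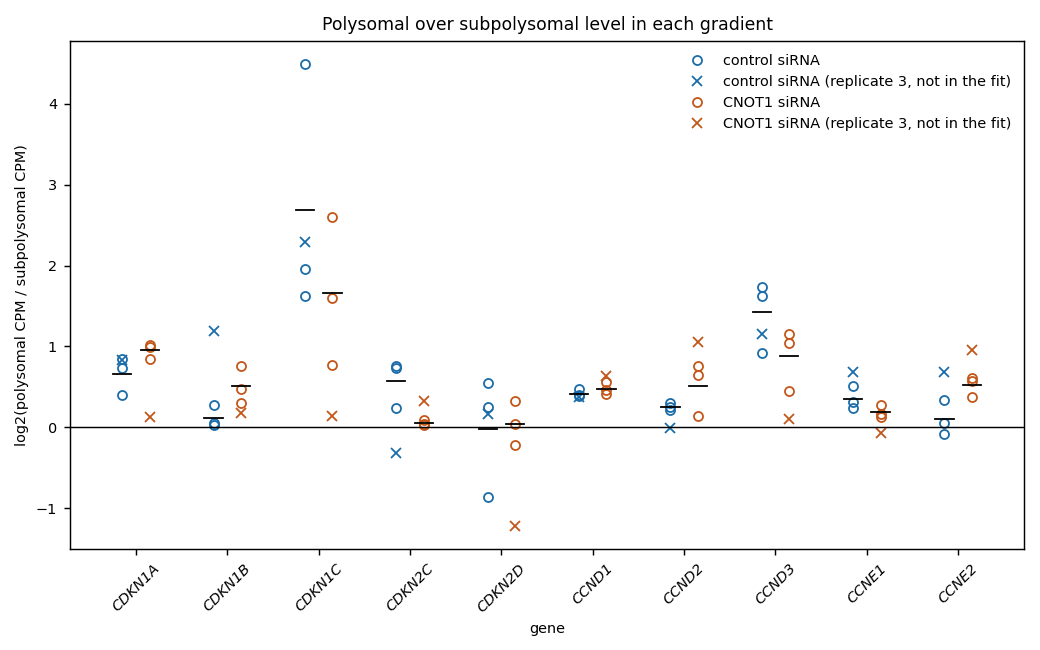
log2 ratio of polysomal to subpolysomal CPM of each gene between same-numbered libraries, which were not taken as paired. Control siRNA is in blue and CNOT1 siRNA in orange, with black lines at the mean of 3 ratios. Crosses mark replicate 3, whose polysomal library is not in the fit. CCND1, CCND3, CDKN1A, CDKN1B and CDKN1C lay above 0 in every ratio. CDKN2C lay between 0.02 and 0.09 in the CNOT1 siRNA ratios without replicate 3.

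Of the 25 further G1/S genes, 11 were higher and 6 lower in polysomal RNA with control siRNA, and 14 and 8 with CNOT1 siRNA. RB1 (1.495) and CDKN2A (1.493) led the increases with control siRNA and CDC25A (1.40) and CDK6 (1.28) with CNOT1 siRNA. E2F1 (-1.32) and CDKN2B (-0.96), and TFDP1 (-1.46) and E2F1 (-1.40), led the decreases. Of the 7 later cell cycle genes, 6 were higher and 0 lower with either siRNA, led by CCNA2 (1.61 and 1.98) and CCNB1, the mitotic cyclin (1.499 and 1.68).

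CNOT1 siRNA was compared with control siRNA within each kind of RNA to ask which mRNAs change in level when the CCR4-NOT scaffold is depleted. In bulk RNA a change in the number of cells in a cell cycle phase and a change in RNA per cell cannot be told apart. In input RNA, 4 of the 10 genes were higher and 2 lower, against 19.6% and 21.1% of all genes. In subpolysomal RNA 3 were higher and 1 lower, against 17.7% and 24.3%. In polysomal RNA 3 were higher and 2 lower, against 17.1% and 14.6%. In this last comparison the direction of the whole gene set depended on scaling, since edgeR with TMM factors gave 2925 genes higher and 2501 lower but RLE factors gave 2251 and 3079. The medians of the 10 genes were 0.07, 0.11 and 0.19 in the 3 kinds of RNA, beside -0.03, -0.06 and 0.00 over all genes. With all 24 libraries as labelled, 0 genes of the whole set and 0 of the 10 passed in polysomal RNA by edgeR (433 higher and 690 lower at an unadjusted p under 0.05), so the polysomal calls below rest on leaving out the 2 replicate 3 libraries.

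CCND2 fell and CCNE1 rose in all 3 kinds of RNA. CCND2 was at 103, 96.2, 126 and 115 CPM in control input and 58.6, 62.1, 85.7 and 74 CPM in CNOT1 siRNA input (log2 -0.65 ± 0.14, FDR 0.000921). Its difference was -0.72 ± 0.14 in subpolysomal RNA (FDR 0.000355) and -0.56 ± 0.16 in polysomal RNA (FDR 0.0112). The CCND2 groups did not overlap in any of the 3. The polysomal call was lost without control replicate 4 (FDR 0.0594), without CNOT1 siRNA replicate 1 (FDR 0.0853) and with all libraries as labelled (-0.22, FDR 0.711).

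CCNE1 was at 18.6, 14.3, 16.7 and 14.8 CPM in control input and 27.2, 27.9, 21.3 and 21.3 CPM in CNOT1 siRNA input (log2 0.60 ± 0.13, FDR 0.000691). It differed by 0.63 ± 0.13 in subpolysomal RNA (FDR 0.000455) and 0.57 ± 0.15 in polysomal RNA (FDR 0.005). Again no group of CCNE1 overlapped, and the polysomal difference with all libraries as labelled was 0.33 (FDR 0.663). CCNE2, the other E-type cyclin, did not pass the test in any of the 3, at 0.01 ± 0.12, -0.25 ± 0.12 and 0.17 ± 0.14. In the paired fit CCNE2 was lower in subpolysomal RNA (-0.25, FDR 0.0494), as it was without control replicate 3 (-0.35, FDR 0.0234).

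CDKN2D was at 4.37, 3.54, 5.06 and 4.42 CPM in control input and 8.24, 5.94, 8.26 and 8.25 CPM in CNOT1 siRNA input (log2 0.82 ± 0.20, FDR 0.00247), with no overlap. Its rise was 0.56 ± 0.20 in subpolysomal RNA (FDR 0.0296), where the groups overlapped, and 0.67 ± 0.23 in polysomal RNA (FDR 0.0323). The subpolysomal call was lost without control replicate 1 (FDR 0.122) or 2 (FDR 0.101), without CNOT1 siRNA replicate 3 (FDR 0.109) or 4 (FDR 0.0763), with only the compared libraries in the fit (FDR 0.139) and with all libraries as labelled (FDR 0.0771). The polysomal call of CDKN2D was lost without control replicate 2 (FDR 0.0785) or 4 (FDR 0.121), without CNOT1 siRNA replicate 1 (FDR 0.0917) or 4 (FDR 0.0745) and with all libraries as labelled (0.29, FDR 0.71).

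CDKN1B was at 45.5, 46.4, 47.4 and 46.6 CPM in control input and 64.8, 64.1, 69.6 and 65.3 CPM in CNOT1 siRNA input with no overlap (log2 0.50 ± 0.10, FDR 0.00036). It rose in polysomal RNA, from 52.7, 52 and 48.9 CPM to 75.2, 69.7 and 67.9 CPM (0.47 ± 0.12, FDR 0.00328), and differed by 0.17 ± 0.10 in subpolysomal RNA, which passed only without control replicate 2 (0.26, FDR 0.0448). With all libraries as labelled the polysomal difference of CDKN1B was 0.21 (FDR 0.666). CDKN2C fell in input, from 84.2, 80.7, 78 and 80.6 CPM to 71.4, 73.1, 55.5 and 66.6 CPM (-0.28 ± 0.09, FDR 0.0181), and in polysomal RNA (-0.42 ± 0.11, FDR 0.00431), with no overlap in either. The input call of CDKN2C was lost without CNOT1 siRNA replicate 3 (FDR 0.0878), with no filter on low counts (FDR 0.0814) and with all libraries as labelled (FDR 0.126), and the polysomal one with all libraries as labelled (-0.23, FDR 0.665).

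CCND3 rose in input, from 28.9, 25.4, 28.1 and 24.9 CPM to 34.3, 35.8, 32.8 and 32.1 CPM (0.33 ± 0.12, FDR 0.0286), and in subpolysomal RNA, from 13.8, 14.2, 16.8 and 16.7 CPM to 23.4, 27.1, 30.3 and 31 CPM (0.86 ± 0.12, FDR 9.36e-06). In both the groups did not overlap, and in polysomal RNA the difference was 0.31 ± 0.14, which passed only without CNOT1 siRNA replicate 4 (0.42, FDR 0.0354). The input call of CCND3 was lost without control replicate 2 (FDR 0.0735) or 4 (FDR 0.0791), without CNOT1 siRNA replicate 1 (FDR 0.0572) or 2 (FDR 0.0738), with no filter on low counts (FDR 0.0636) and with all libraries as labelled (FDR 0.0794). CCND1 did not pass in any kind of RNA, at 0.00 ± 0.08, -0.02 ± 0.08 and 0.09 ± 0.09, nor did CDKN1A, at 0.13 ± 0.15, 0.00 ± 0.15 and 0.21 ± 0.17, or CDKN1C, at -0.19 ± 0.27, 0.53 ± 0.43 and -0.44 ± 0.33.

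**Figure D4:**
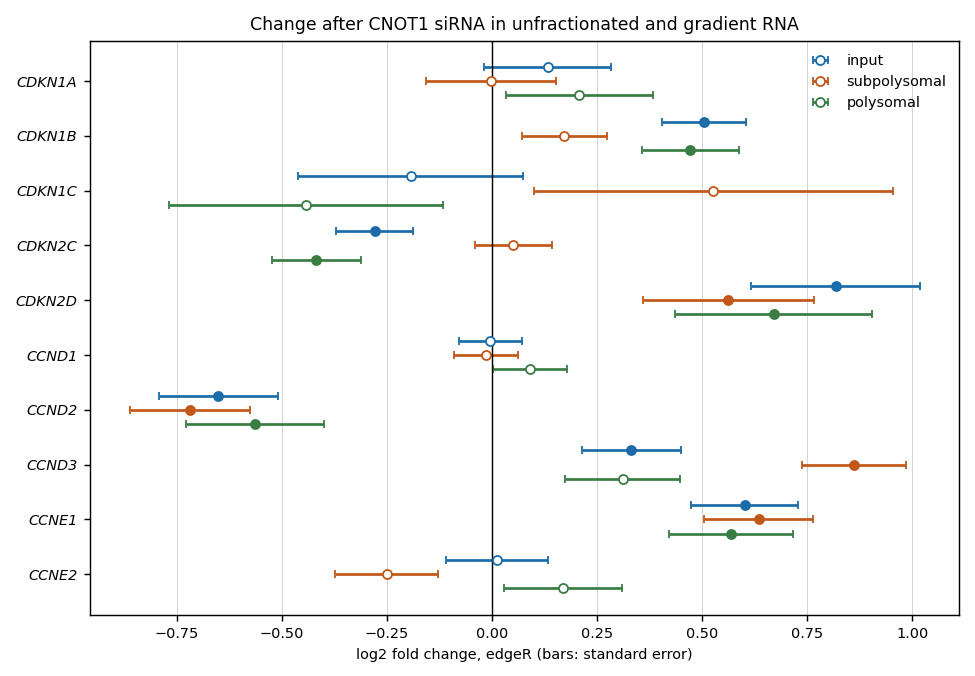
log2 fold change of each gene after CNOT1 siRNA in input, subpolysomal and polysomal RNA, with bars for 1 standard error and filled symbols where FDR was below 0.05. CCND2 lies left of 0 and CCNE1 and CDKN2D right of 0 in all 3 kinds of RNA, and CCND3 is at 0.86 in subpolysomal RNA, 0.33 in input and 0.31, not filled, in polysomal RNA.

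Of the 25 further G1/S genes, 6 were higher and 5 lower in input, 8 and 8 in subpolysomal and 7 and 4 in polysomal RNA. FBXW7, a ubiquitin ligase subunit that targets cyclin E, had the largest increase in input (0.97 ± 0.10) and polysomal RNA (1.04 ± 0.12), followed by E2F5 (0.82) and MYC (0.81), and E2F5 (0.96) and SKP2, which targets p27 for degradation (0.77), led in subpolysomal RNA. The largest decreases were of CDK6 (-0.51) and CDKN2A (-0.48) in input, E2F2 (-0.74) and CDK2 (-0.72) in subpolysomal and CDKN2A (-0.65) and TFDP1 (-0.62) in polysomal RNA. Of the 7 later genes, 1 was higher and 1 lower in input (CCNB1 0.22 and CDK1 -0.38), 0 and 1 in subpolysomal RNA (CDK1 -0.49) and 2 and 0 in polysomal RNA (CCNA2 0.36 and CCNB1 0.30).

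Whether the difference between fractions itself changed after CNOT1 siRNA was tested as an interaction, the polysome shift. Of the 10 genes 0 shifted toward polysomes and 2 away, against 9.99% and 7.51% of all genes by edgeR with TMM factors (1709 and 1285 genes, but 1165 and 1630 with RLE factors). The median shift of the 10 genes was 0.11, beside 0.07 over all genes. CDKN2C shifted by -0.47 ± 0.14 (FDR 0.0231). The log2 ratio of its polysomal to subpolysomal CPM was formed between same-numbered libraries. These were not taken as paired, so the ratios are a description. The ratio was 0.76, 0.73 and 0.24 for control siRNA replicates 1, 2 and 4. For the same numbers with CNOT1 siRNA it was 0.05, 0.02 and 0.09. In the libraries labelled replicate 3, the ratio of CDKN2C was -0.32 with control siRNA and 0.33 with CNOT1 siRNA. The CDKN2C call was lost without the control polysomal replicate 2 library (FDR 0.0584), without the CNOT1 siRNA polysomal replicate 4 library (FDR 0.0591) and with all libraries as labelled (-0.27, FDR 0.445).

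CCND3 shifted by -0.55 ± 0.18 (FDR 0.0401). Its log2 ratio, formed in the same way, was 1.74, 1.62 and 0.91 with control siRNA. With CNOT1 siRNA it was 1.16, 1.05 and 0.45, so the ranges overlapped. The CCND3 call was lost without control subpolysomal replicate 1 (FDR 0.0788) or 2 (FDR 0.0604), CNOT1 siRNA subpolysomal replicate 3 (FDR 0.0679) or 4 (FDR 0.075), control polysomal replicate 1 (FDR 0.0826) or 2 (FDR 0.111), or CNOT1 siRNA polysomal replicate 1 (FDR 0.0632) or 4 (FDR 0.123). With all libraries as labelled the CCND3 shift was -0.65 (FDR 0.0602). The other 8 genes did not pass, with shifts from -0.97 ± 0.54 for CDKN1C to 0.42 ± 0.19 for CCNE2. Without control subpolysomal replicate 3, CDKN1B (0.41, FDR 0.0201) and CCNE2 (0.52, FDR 0.0406) passed, in the opposite direction, toward polysomes. Of the 25 further G1/S genes 8 shifted toward polysomes, led by FBXW7 (1.05) and E2F2 (0.67), and 6 away, led by TFDP1 (-0.90) and CDK4 (-0.75), and of the 7 later genes 0 passed.

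The TNRC6 experiment asks which mRNAs rise when the microRNA partners TNRC6A and TNRC6B are depleted. With 2 libraries per group, 0 of 14064 genes passed the edgeR test (0% higher and 0% lower), TNRC6A and TNRC6B included, with log2 fold changes of -1.80 and -1.68 and FDR 0.9999. At an unadjusted p under 0.05 edgeR gave 173 genes higher and 116 lower, and DESeq2 called 6 higher and 2 lower at FDR below 0.05. CDKN1C was not tested, since it failed the filter on low counts, and 0 of the 9 other genes passed by either tool. At an unadjusted p under 0.05, 1 of them was higher and 0 lower. The median log2 difference of the 9 genes was 0.40, beside -0.03 over all genes. A fit with the replicate number as a block called CCND1, CCND2 and CDKN1A higher, beside 520 genes higher and 243 lower. The labels state no pairing and 2 pairs are too few to show one, so its values are given with the processing below.

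CCND1 had the largest difference of the 9 genes. It was at 152 and 121 CPM with control siRNA and 304 and 238 CPM with TNRC6A/B siRNA, a log2 difference of 0.99 ± 0.24 (edgeR, unadjusted p 0.0091, FDR 0.9999). CCND2 was at 81.3 and 105.7 against 135 and 141 CPM (0.56 ± 0.22), CDKN1A at 16.8 and 16.1 against 22.2 and 28.7 CPM (0.63 ± 0.27) and CDKN2D at 3.09 and 2.37 against 4.79 and 4.1 CPM (0.70 ± 0.33). For these 4 genes the groups did not overlap. CDKN2C was at 60 and 49.4 against 57.8 and 52 CPM, a difference of 0.005 ± 0.23. CDKN2C and CDKN2D held 0 matches to any of the motifs searched.

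In the other 4 genes the groups overlapped. CCND3 was at 36.4 and 13.7 CPM with control siRNA and 39.4 and 21.8 CPM with TNRC6A/B siRNA (0.28 ± 0.56). CDKN1B was at 20.8 and 37.1 against 31.7 and 44.5 CPM (0.40 ± 0.38), and CCNE2 at 24.5 and 45 against 36.4 and 53 CPM (0.36 ± 0.39). CCNE1 was at 20.8 and 15.7 against 21.9 and 20.8 CPM (0.22 ± 0.27). Leaving out 1 library turned the direction of CCND3, to -0.21 without TNRC6A/B siRNA replicate 1 and to -0.20 without control replicate 2, and of CCNE2, to -0.02 without control replicate 1. Of the 25 further G1/S genes 0 passed, with a median of -0.03, and of the 6 later genes tested 0 passed, with a median of -0.03.

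**Figure D5:**
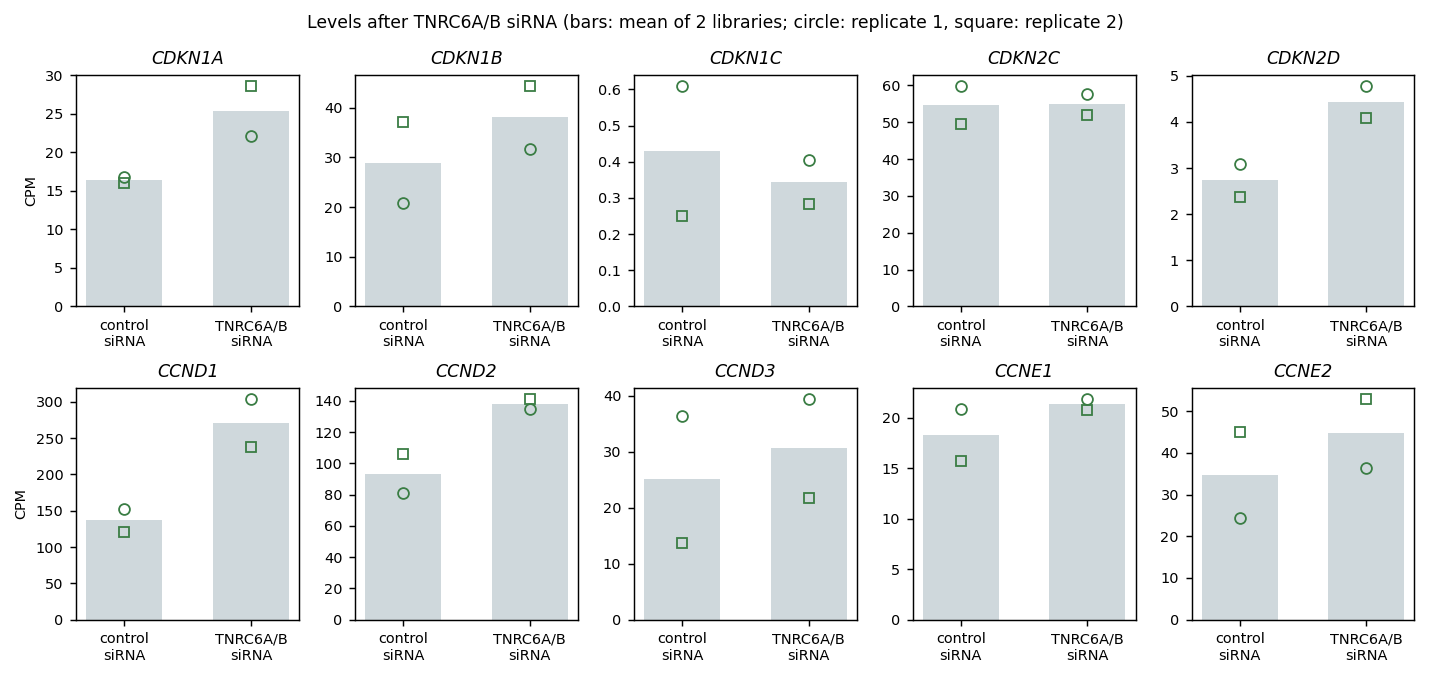
CPM of each gene in the 4 libraries of the TNRC6 experiment, with bars from 0 to the mean of 2 libraries, circles for replicate 1 and squares for replicate 2. CCND1 was at 152 and 121 CPM with control siRNA and at 304 and 238 CPM with TNRC6A/B siRNA, and CDKN2C at about the same level in both groups.

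For the 9 genes tested in all experiments, the gene with the most similar pattern was found by Pearson's r of group mean log2 CPM over the 12 groups, each experiment centred on its own mean, among about 8820 genes of mean 10 CPM or more in each experiment. The highest values were 0.99 between CCND3 and PYCR1, 0.98 between CDKN2C and OAZ2, 0.98 between CCNE1 and BTG1, and 0.97 between CDKN2D and ZMYND19. For CCND1 the nearest gene was TMEM245 (0.95), for CDKN1B MGRN1 (0.94), for CCNE2 DHX33 (0.94), for CCND2 GPAA1 (0.93) and for CDKN1A RCE1 (0.92). These are the highest of many correlations over 12 points that share libraries, and are given as a description.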

How the data were processed

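The deposited files hold gene counts, 1 file per library, which the authors made by aligning reads of a stranded Illumina TruSeq library to hg19 with TopHat2 and counting them per gene symbol with HTSeq; the submitters' processing notes also name bcl2fastq 2.0. The aligner and counter versions and the strand setting are not given in the sources used here. A table of the authors' own RIP comparisons holds fold changes and p-values and was not used. The unit is raw counts, so genes were filtered by filterByExpr and scaled by TMM within each experiment. They were tested with edgeR 4.0.16 (R 4.3.3) quasi-likelihood F-tests, two-sided, with Benjamini-Hochberg FDR over all genes of a comparison. The code was first run on simulated counts. These held no replicate effects, so that check does not show how the tests perform on these libraries. CPM uses TMM-adjusted totals, and SE is the log2 fold change divided by the square root of F. The depth of 15353317 to 46018900 counts per library sets the precision of low genes such as CDKN1C. No pair of libraries agreed within sampling noise (chi-square per degree of freedom 5.22 to 133 over 50 pairs).

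Same-numbered libraries correlated in their deviations from group means at 0.184 to 0.782 in the RIP comparisons and 0.195 to 0.729 in the CNOT1 siRNA comparisons. These were taken as paired from the data, but the main fit held the group only. Its counts, FDR and SE, in text and figures, therefore leave the pairing out, and the replicate block is the paired fit. Polysomal and subpolysomal libraries were not taken as paired (-0.47 to 0.236). DESeq2 1.42.0, RLE factors, no filter, only the compared libraries, the replicate block, all 24 gradient libraries as labelled and leaving out each library were the alternatives. RIP total RNA replicate 3 was numbered by its title, its description naming another number. The genes named are the 10 members, the siRNA and IP targets, the 2 largest increases and decreases per list and comparison, and the nearest gene by pattern; 1 gene that this rule names is not reported here. The members and lists were chosen with earlier results of these data known. microRNAs are from RefSeq (GRCh38.p14), transcripts from GENCODE v44lift37.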

Additional observations from a re-analysis of the deposited data

Results flagged for a closer look

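Among 60 groups of 4 libraries tested for a library far from the others by Dixon's ratio, 3 had one, a share that chance gives in about 1 of 20 groups. CDKN1B was at 75.2 CPM in the library labelled control siRNA polysomal replicate 3, against 48.9 to 52.7 CPM in the other 3, and that library also opposed its label in CNOT1. CDKN2D was at 5.94 CPM in CNOT1 siRNA input replicate 2, against 8.24 to 8.26 CPM. CCND1 was at 113.9 CPM in control siRNA subpolysomal replicate 1, against 118 to 118.6 CPM.

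CCND1 (-0.55) and CCND3 (-0.75) differed between the eIF4A2 and DDX6 IPs by the direct edgeR test, both lower with eIF4A2. CCND3 (-0.55) and CDKN2C (-0.47) differed between the siRNAs in their polysomal over subpolysomal log2 difference, by the interaction test.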

How the results depend on the processing

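No difference of the 10 genes that passed the test reversed direction under the alternatives run. Differences that did not pass changed sign in places, such as CDKN2D between fractions with control siRNA (-0.20, and 0.0015 with all 24 libraries as labelled). With no filter on low counts, 3 genes passed in the eIF4A2 IP in place of 5 and 4 between the eIF4A2 and DDX6 IPs in place of 2. With the replicate block, 5 passed between the eIF4A2 and DDX6 IPs, 2 between the eIF4A2 and eIF4A1 IPs and 2 between the DDX6 and eIF4A1 IPs. The all-gene counts of that fit are given with those results. In the TNRC6 experiment the libraries share only a number, with 2 pairs whose deviations correlated at 0.862, and the replicate block there called 3 genes in place of 0: CCND1 (0.99, FDR 9.79e-08), CCND2 (0.58, FDR 0.0102) and CDKN1A (0.61, FDR 0.0194); it called 520 genes higher and 243 lower in all. In the polysomal against subpolysomal comparison, which is not paired, the block added CCND2 with control siRNA (0.34, FDR 0.00828). It changed no other call beside those given with the results. With all 24 gradient libraries as labelled, 0 of the 10 genes passed after CNOT1 siRNA in polysomal RNA in place of 5 and 0 in the polysome shift in place of 2. Of all 16776 genes of that fit, 0 were higher and 0 lower in polysomal RNA. In the polysome shift 547 were higher and 402 lower. Leaving out 1 library at a time gave 3 to 5 genes in the eIF4A2 IP, 3 to 5 in the DDX6 IP, 0 to 2 between the eIF4A2 and DDX6 IPs, 3 to 5 after CNOT1 siRNA in polysomal RNA and 0 to 4 in the polysome shift. Over all genes, these fits called 3626 to 4091 higher and 3987 to 4318 lower in the eIF4A2 IP. In the DDX6 IP they called 3210 to 3599 and 3357 to 3708, and between these IPs 745 to 1596 and 723 to 1887. After CNOT1 siRNA they called 2146 to 2625 and 1750 to 2223 in polysomal RNA. In the polysome shift they called 1197 to 1957 and 889 to 1626. The causes were not tested. Counting depth limits CDKN1C, at 1 to 92 counts per library.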
